A study of Mus musculus with 6 samples.

Results

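The genes described here are 10 of the 39179 rows of a count matrix, picked by symbol: the scavenger receptor genes Msr1, Marco, Scarb1, Scarb2 and Lrp1, the kinase genes Mertk and Axl, the bridging molecule genes Mfge8 and Pros1, and Havcr2, which encodes the phosphatidylserine receptor TIM-3. The exons of these genes overlap no other annotated gene. They were measured by 3′-end RNA sequencing of tumor-associated macrophages (TAMs) sorted for CD45, CD11b and F4/80, with no NK1.1 or Ly6G and with Ly6C absent or dim, from subcutaneous melanomas in C57BL/6 hosts that were 8 weeks of age. The tumor cells were a mutant Braf-driven line with intact cyclooxygenase genes (Ptgs-competent, 3 libraries) or its derivative in which Cas9 had inactivated both Ptgs1 and Ptgs2 (Ptgs-deficient, 3 libraries). Only the implanted cells were edited, so all macrophages had the wild-type host genotype, and every library pooled several tumors. The study's methods do not say whether the edited line was 1 clone, so that other differences between the lines and a difference in cyclooxygenase cannot be told apart here. Whether the pools of a group came from separate experiments was not stated, so that p-values measure the spread between these pools.

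As background, macrophages clear dying cells and modified lipoproteins through 2 overlapping groups of receptors. Scavenger receptors bind oxidized lipids, polyanions and debris. Efferocytosis, the engulfment of apoptotic cells, is started by receptors that recognise phosphatidylserine on the dying cell, either directly or through a soluble bridging molecule. The receptor tyrosine kinases MERTK and AXL, which form a family with TYRO3, bind phosphatidylserine through their ligands GAS6 and protein S, whereas MFG-E8 bridges it to integrins. In tumors these receptors are known for silent disposal of dead cells and for damping macrophage inflammation.

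Libraries held 4431184 to 8760679 counts. Because each read comes from the 3′ end of a transcript, a level in CPM (counts relative to the library total, scaled by the TMM method) does not grow with transcript length. The 10 general macrophage markers were all detected, at a summed 6722 to 17553 CPM in Ptgs-competent pools and 18757 to 22714 CPM in Ptgs-deficient pools. Ptgs-competent replicate 3 stood apart. It had the lowest macrophage sum, with Csf1r, the receptor for macrophage colony-stimulating factor, at 231 CPM against 797 to 1559 CPM in the other 5 libraries. It also had the highest sum of 14 tumor and stromal cell markers, 1036 CPM, against 332 and 378 CPM in the other Ptgs-competent libraries and 44.3 to 113 CPM in Ptgs-deficient pools. The melanocyte markers Mlana, Pmel, Tyr, Dct, Tyrp1, Sox10 and S100b were at 0 in all libraries, so that this sum rested on 7 genes, Sparc and Col1a1 among them. Another, Mitf, a melanocyte regulator that macrophages also express, ran opposite to the sum, at 1.91, 0 and 0.647 CPM in Ptgs-competent pools and 10.6, 44.3 and 18.2 CPM in Ptgs-deficient pools. Mitochondrial transcripts took 6.79% of the counts of Ptgs-competent replicate 3, against 1.72% to 4.11% in the other 5 libraries. The part of this share in the levels of that library was not tested. The sum of 11 neutrophil markers was 545 to 709 CPM in Ptgs-competent pools and 439 to 532 CPM in Ptgs-deficient pools, without overlap, with Ly6g, Mpo and Elane at 0 in all libraries. Its genes did not share a direction, with mean S100a8 at 287 and 137 CPM and mean Retnlg at 32.1 and 139 CPM in that order, and the part of such cells in the results was not tested. The share of counts taken by Gm26924, a locus rich in ribosomal RNA reads, was 6.83% to 11.6% in Ptgs-competent pools and 1.82% to 4.63% in Ptgs-deficient pools, and its part in the results was not tested. In such sorted pools, fewer expressing cells and less RNA per cell cannot be told apart.

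Of the 10 members, 9 had enough counts to be tested, and 0 of them passed the threshold (edgeR quasi-likelihood test, adjusted p no higher than 0.05 with an absolute log2 fold change no lower than 1.5), where 0.216% of the 8793 tested genes did, 0.159% higher and 0.0569% lower with Ptgs deficiency. At an unadjusted p under 0.05 there was 1 member, Pros1, against 8.83% of all tested genes. Pros1 was also the only member whose libraries did not overlap between groups, 1 of 9, against 19% of tested genes. Fitted log2 fold changes were above 0 for 3 members and below 0 for 6, with a median of -0.54, where the median of all tested genes was 0.02. The likelihood ratio test, DESeq2 and both limma fits called 0 members as well, and the fit without a filter on low counts called Pros1.

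**Figure D1:**
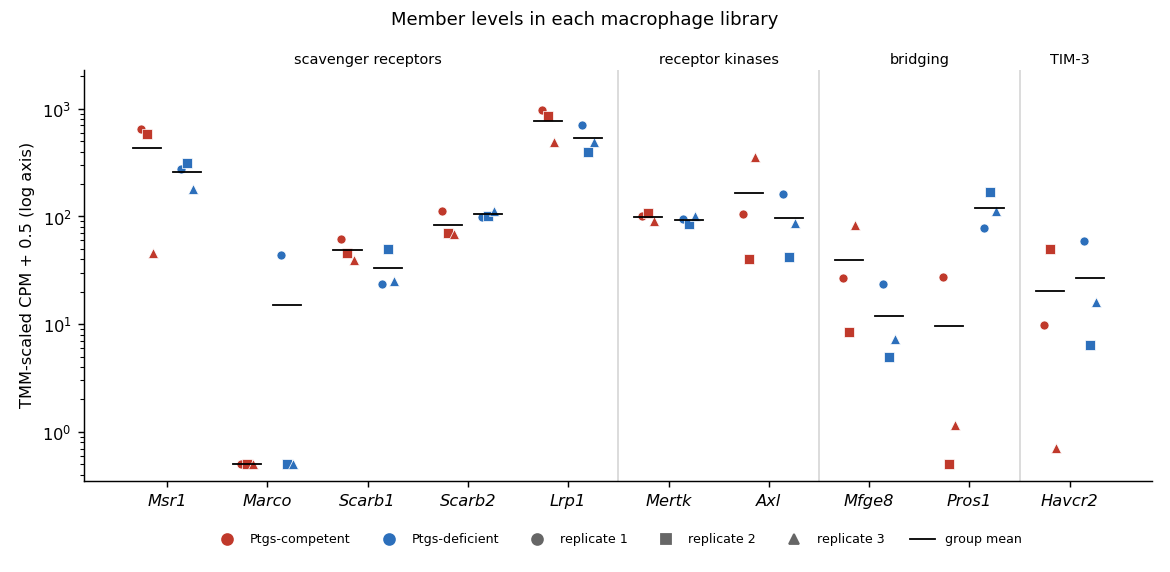
TMM-scaled CPM plus 0.5 on a log axis for each member in each library, red for Ptgs-competent and blue for Ptgs-deficient, with the symbol giving the replicate and the line the group mean (n = 3). Pros1 is the only tested member whose blue points all lie above the red ones, Mertk lies between 84.1 and 107.5 CPM throughout, and the red triangle (Ptgs-competent replicate 3) is lowest for Msr1 and highest for Axl and Mfge8.

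Among the bridging molecules, Pros1 (ENSMUSG00000022912; GRCm38 chromosome 16, 62854307 to 62929346) encodes protein S, an anticoagulant cofactor that is also a ligand of MERTK. It had 168, 0 and 3 counts in Ptgs-competent pools (replicates 1, 2 and 3), or 26.8, 0 and 0.647 CPM. In Ptgs-deficient pools it had 426, 1412 and 545 counts, or 77.7, 168 and 113 CPM. All Ptgs-deficient libraries were thus above all Ptgs-competent ones, and within the latter 97.6% of the level came from replicate 1. The group means were 9.14 ± 15.3 and 119.5 ± 45.6 CPM (n = 3 each, SD), a log2 fold change of 3.70 ± 1.59 (SE) with a 95% interval of 0.17 to 7.24. The edgeR adjusted p was 0.515, so that the difference did not pass the test over all genes. Without Ptgs-competent replicate 1 the remaining Ptgs-competent libraries were at or below 3 counts, and the edgeR adjusted p was 0.0881. Against a floor of 3 counts, which covers counting error only, the level in Ptgs-deficient pools was then at least 209.9-fold higher. Over all alternatives the adjusted p ranged from 0.00653 to 0.795, with the lowest value in the fit without a filter.

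Gas6 (chromosome 8, 13465374 to 13494490), which is no member but encodes the other ligand of these kinases, had the same order of groups. It was at 439, 830.0 and 311 CPM in Ptgs-competent pools and at 1233, 2129 and 1755 CPM in Ptgs-deficient pools. The groups did not overlap, and the log2 fold change was 1.69 ± 0.41 (SE; edgeR adjusted p = 0.166). The call depended on the test, and Gas6 passed in 6 alternatives, with adjusted p from 6.34e-04 (no filter) to 0.0433 (replicate block). Its exons overlap Tmem255b on the opposite strand, and the strand setting of the counting was not stated. Gas6 was by far the more abundant ligand transcript in every library. Pros1 made up 5.75%, 0% and 0.207% of the summed CPM of both ligands in Ptgs-competent pools and 5.93%, 7.32% and 6.04% in Ptgs-deficient pools, so that Ptgs-competent replicate 1 had a share close to that of the Ptgs-deficient libraries.

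The sequences around the start sites of both ligand genes and of both receptor genes are shown because the ligands and the receptors differed in how they varied across libraries. Each window runs from 250 bases before to 50 bases after the start (RefSeq, GRCm38.p6), 5′ to 3′ along the gene's strand: chr16:62854057-62854356 (+) for Pros1, chr8:13494486-13494785 (-) for Gas6, chr2:128698665-128698964 (+) for Mertk and chr7:25788684-25788983 (-) for Axl. Capitals mark matches, on either strand, to any of 5 motifs: the STAT site TTCNNNGAA, the cyclic AMP element TGACGTCA, the AP-1 site TGANTCA, the PU.1 site AGGAAGT and the E-box CACGTG. They are held by 8.3%, 1.79%, 7.81%, 9.35% and 7.15% of all 32851 windows in the same order, and no 2 matches overlapped in the windows shown.
Pros1: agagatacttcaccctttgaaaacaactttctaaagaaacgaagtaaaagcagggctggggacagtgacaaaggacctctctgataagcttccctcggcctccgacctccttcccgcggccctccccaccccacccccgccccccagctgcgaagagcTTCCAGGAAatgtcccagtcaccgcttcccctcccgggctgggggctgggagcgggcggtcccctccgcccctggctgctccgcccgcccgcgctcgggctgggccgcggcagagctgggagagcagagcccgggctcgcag
Gas6: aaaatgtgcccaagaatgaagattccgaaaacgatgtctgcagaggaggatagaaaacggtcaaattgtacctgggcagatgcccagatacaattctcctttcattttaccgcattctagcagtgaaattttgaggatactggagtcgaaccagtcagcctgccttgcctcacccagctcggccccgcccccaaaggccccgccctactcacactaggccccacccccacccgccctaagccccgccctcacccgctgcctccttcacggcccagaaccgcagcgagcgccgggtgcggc
Mertk: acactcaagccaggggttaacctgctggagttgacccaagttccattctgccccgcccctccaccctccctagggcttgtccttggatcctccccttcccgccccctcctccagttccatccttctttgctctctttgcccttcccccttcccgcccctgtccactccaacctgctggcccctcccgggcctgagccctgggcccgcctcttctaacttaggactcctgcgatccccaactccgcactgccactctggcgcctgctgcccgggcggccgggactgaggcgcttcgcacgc
Axl: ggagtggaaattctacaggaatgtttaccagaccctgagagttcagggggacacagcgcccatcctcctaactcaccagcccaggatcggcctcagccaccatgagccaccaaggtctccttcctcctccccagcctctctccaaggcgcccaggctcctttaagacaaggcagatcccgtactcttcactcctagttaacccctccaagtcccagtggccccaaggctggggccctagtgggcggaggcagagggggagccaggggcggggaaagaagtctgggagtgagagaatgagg
Of these 4 windows that of Pros1 alone held a match, the STAT site TTCCAGGAA at position -92 from the start. The windows of Gas6, Mertk and Axl held none of these letters. Of the other members, windows were listed for Marco, Scarb2, Lrp1, Mfge8 and Havcr2. That of Lrp1 held the STAT site TTCCCAGAA at -232, and that of Havcr2 held 1 AP-1 and 2 PU.1 matches. A match is a string of letters and was not tested for binding.

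Mertk (ENSMUSG00000014361; chromosome 2, 128698956 to 128802894), the main efferocytosis kinase of macrophages, was the steadiest member. Its level was 100.6, 107.5 and 89.9 CPM in Ptgs-competent pools and 94.3, 84.1 and 101.4 CPM in Ptgs-deficient pools. The groups overlapped closely, at 99.3 ± 8.87 and 93.3 ± 8.71 CPM (n = 3 each, SD). The highest library was 1.28 times the lowest, and only 3 of the 8793 tested genes (Sod1, Tuba1b and Esd) had a smaller ratio. Its 417 to 706 counts per library carry a counting error of 3.76% to 4.90%, against a coefficient of variation of 8.86% over all 6 libraries. The log2 fold change was -0.09 ± 0.46 (SE; edgeR adjusted p = 0.9995), with a 95% interval of -1.12 to 0.93. That interval draws in part on a spread that edgeR shares across genes, and it is much wider than the spread of the Mertk values themselves.

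Axl (ENSMUSG00000002602; chromosome 7, 25757273 to 25788705), a kinase that binds GAS6 and is known to be induced by interferon, had a highest library 8.80 times its lowest. It was at 105, 40.2 and 354 CPM in Ptgs-competent pools and at 159.7, 41.7 and 86.7 CPM in Ptgs-deficient pools. Ptgs-competent replicate 3 was the highest of all, and replicates 2 of both groups were the lowest. The means were 166 ± 166 and 96.0 ± 59.5 CPM (n = 3 each, SD), a log2 fold change of -0.79 ± 0.77 (SE; edgeR adjusted p = 0.9995). Without Ptgs-competent replicate 3, which held 71.0% of the group's level, the Ptgs-competent mean was 72.4 CPM and the log2 fold change turned to 0.45. The ratio of Axl to Mertk was 1.04, 0.374 and 3.94 in Ptgs-competent pools and 1.69, 0.496 and 0.855 in Ptgs-deficient pools. With Mertk this steady, the ratio followed Axl. The third kinase of the family, Tyro3, had counts in Ptgs-competent replicate 3 only, at 7.33 CPM.

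**Figure D2:**
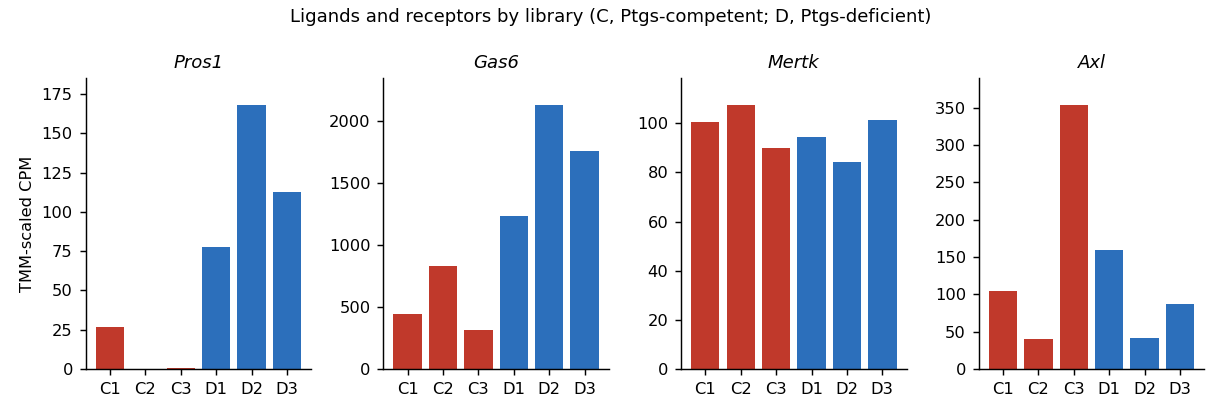
TMM-scaled CPM of the ligand genes Pros1 and Gas6 and the receptor genes Mertk and Axl in each library, C1 to C3 for Ptgs-competent (red) and D1 to D3 for Ptgs-deficient (blue) replicates, each on its own linear axis from 0. Both ligands are higher in every blue bar than in every red bar, Mertk is level, and the Axl bar of C3 (354 CPM) is the tallest.

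Mfge8 (ENSMUSG00000030605; chromosome 7, 79133768 to 79149060), whose product links phosphatidylserine to the αv integrins, was scarce. It was at 26.5, 7.88 and 82.6 CPM in Ptgs-competent pools and at 23.2, 4.41 and 6.83 CPM in Ptgs-deficient pools. The groups overlapped, and as for Axl the highest value was in Ptgs-competent replicate 3. The log2 fold change was -1.76 ± 1.45 (SE; edgeR adjusted p = 0.9995). Without Ptgs-competent replicate 3 it was -0.54, and the Ptgs-competent mean was 17.2 in place of 39.0 CPM. Without Ptgs-deficient replicate 1 the Ptgs-deficient mean was 5.62 in place of 11.5 CPM. Of the genes for its integrin partners, Itgav, the αv chain itself, was at 9.88, 2.79 and 0 CPM in Ptgs-competent pools and 17.5, 14.2 and 0 CPM in Ptgs-deficient pools, with overlap. Itgb3 was at 34.7, 115 and 17.0 CPM in Ptgs-competent pools and at 0, 8.69 and 4.97 CPM in Ptgs-deficient pools, without overlap and with an edgeR adjusted p of 0.652. Itgb5 overlapped between the groups, at 55.4 to 303 and 59.2 to 223 CPM. These 3 genes are given here because of their link to MFG-E8 and fall outside the rule for naming genes.

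Lrp1 (ENSMUSG00000040249; chromosome 10, 127538161 to 127621148) encodes a very large endocytic receptor for apolipoprotein E and protease complexes, which also binds calreticulin on dying cells. It was the most abundant member in all libraries. It was at 983, 859.7 and 487 CPM in Ptgs-competent pools and at 713, 397 and 489 CPM in Ptgs-deficient pools. The means were 777 ± 258 and 533 ± 163 CPM (n = 3 each, SD), with overlap. The log2 fold change was -0.54 ± 0.37 (SE; edgeR adjusted p = 0.922), with a 95% interval of -1.37 to 0.28. It was -0.74 without Ptgs-competent replicate 3, where the edgeR adjusted p was 0.539, and -0.33 without Ptgs-competent replicate 1. Over all libraries left out in turn, the Lrp1 value lay between -0.78 and -0.33.

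Msr1 (ENSMUSG00000025044; chromosome 8, 39581685 to 39642673), the class A scavenger receptor for modified lipoproteins, had a single library far from the rest. It was at 656 and 585 CPM in Ptgs-competent replicates 1 and 2 but at 45.5 CPM in replicate 3, and at 278, 315 and 179 CPM in Ptgs-deficient pools. All Ptgs-deficient libraries thus lay below replicates 1 and 2 and above replicate 3. Over all libraries the log2 fold change was -0.73 ± 0.73 (SE; edgeR adjusted p = 0.9995). Without Ptgs-competent replicate 3 the groups did not overlap, at a mean of 620.3 against 258 CPM. The log2 fold change was then -1.22 ± 0.33 (SE), the unadjusted p 0.00488 and the edgeR adjusted p 0.254, so that it did not pass. Without Ptgs-competent replicate 1 or 2 the log2 fold change of Msr1 was nearer to 0, at -0.29 and -0.45. The low Msr1 level of that library went with its low macrophage sum and its high tumor and stromal sum, and their part in the result was not tested.

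Marco (ENSMUSG00000026390; chromosome 1, 120474538 to 120505024), another class A receptor that marks marginal zone and alveolar macrophages, was seen in 1 library. It had 239 counts (43.6 CPM) in Ptgs-deficient replicate 1 and 0 in the other 5. By counting error alone a count of 0 there allows up to 3 counts, or 0.357 to 0.647 CPM. Marco did not reach the filter and was not tested, and the replicates of its own group set no level for it.

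The class B receptors were steadier. Scarb1 (ENSMUSG00000037936; chromosome 5, 125277087 to 125341094), which takes up lipid from high-density lipoprotein, was at 61.0, 45.0 and 38.6 CPM in Ptgs-competent pools and at 23.2, 49.7 and 24.6 CPM in Ptgs-deficient pools. Only Ptgs-deficient replicate 2 reached into the range of the other group. Its log2 fold change was -0.57 ± 0.88 (SE; edgeR adjusted p = 0.9995), with a 95% interval of -2.53 to 1.39. Without Ptgs-deficient replicate 2 the groups did not overlap, at a log2 difference of -1.01 and with an unadjusted edgeR p of 0.418. Without Ptgs-competent replicate 1 and without Ptgs-deficient replicate 1 the Scarb1 value was nearer to 0, at -0.36 and -0.34. Scarb2 (ENSMUSG00000029426; chromosome 5, 92441314 to 92506833) encodes LIMP-2, the lysosomal membrane protein that delivers glucocerebrosidase. It was at 112.5, 69.9 and 68.8 CPM in Ptgs-competent pools and at 98.3, 101.3 and 113.0 CPM in Ptgs-deficient pools. Its highest library was 1.64 times the lowest, a ratio undercut by 120 of the 8793 tested genes. Its log2 fold change was 0.32 ± 0.49 (SE) with a 95% interval of -0.77 to 1.40 and an edgeR adjusted p of 0.9995. With each library left out in turn the Scarb2 value lay between 0.20 and 0.59, the highest without Ptgs-competent replicate 1 and the lowest without Ptgs-competent replicate 2.

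Havcr2 (ENSMUSG00000020399; chromosome 11, 46454935 to 46481255), known as an inhibitory receptor of T cells and also present on myeloid cells, was erratic in both groups. It was at 9.24, 49.4 and 0.216 CPM in Ptgs-competent pools and at 58.2, 5.95 and 15.5 CPM in Ptgs-deficient pools. The log2 fold change was 0.44 ± 1.77 (SE; edgeR adjusted p = 0.9995). It turned to -0.08 without Ptgs-competent replicate 3 and to -0.83 without Ptgs-deficient replicate 1. Ptgs-competent replicate 2 held 83.9% of its group's level and Ptgs-deficient replicate 1 held 73.1%, and without them the means were 4.73 in place of 19.6 CPM and 10.7 in place of 26.6 CPM. Dendritic cells and T cells also express Havcr2, and the pools were sorted for CD11b and F4/80 without NK1.1. The sum of 8 dendritic cell markers was 0 to 14.5 CPM in Ptgs-competent pools and 0 to 31.2 CPM in Ptgs-deficient pools. That of 11 NK and T cell markers was 2.13 to 2.23 CPM in the former and 16.8 to 33.1 CPM in the latter, without overlap. Of its genes Klrk1 had no count in Ptgs-competent pools and was at 26.3, 4.29 and 16.1 CPM in Ptgs-deficient pools, and Gzma was at 1.12 to 1.64 and 0.207 to 20.4 CPM. Ptgs-deficient replicate 2 also held Cd3d (7.38 CPM) and the dendritic cell genes Dpp4 (22.9 CPM) and Clec9a (6.43 CPM). Zbtb46, Xcr1, Itgae, Ccr7, Ncr1, Gzmb, Prf1, Cd3e, Cd3g and Trac were at 0 in all libraries, and the part of such cells in the Havcr2 levels was not tested.

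**Figure D3:**
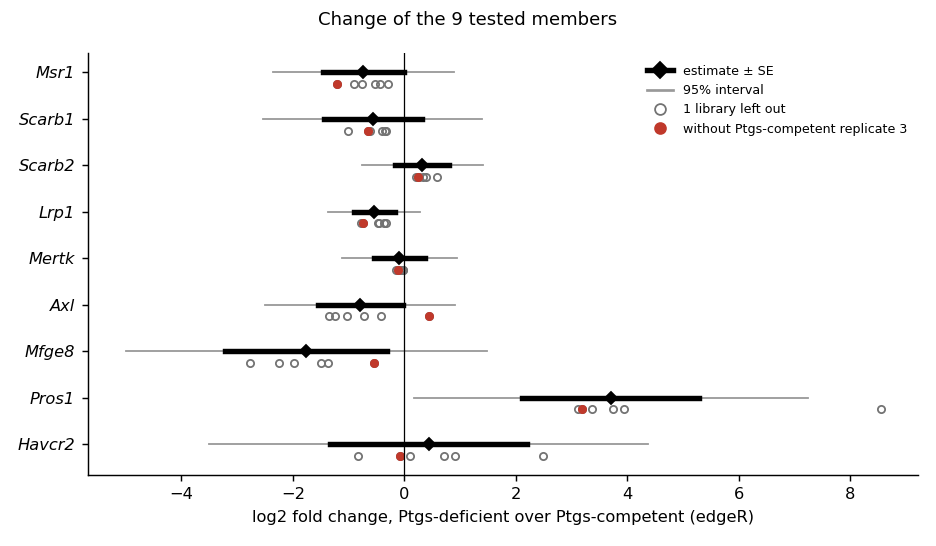
Fitted log2 fold change, Ptgs-deficient over Ptgs-competent, of the 9 tested members (diamond) with its standard error (thick bar) and 95% interval (thin line), and below each the values with 1 library left out (open circles; red without Ptgs-competent replicate 3). The interval lies clear of 0 for Pros1 alone (0.17 to 7.24), and the red circle lies on the other side of 0 from the estimate for Axl and Havcr2.

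The members did not all vary together across libraries, although Axl and Mfge8 shared their highest library and some low ones. In Ptgs-competent replicate 3, Axl and Mfge8 were at 1.43 and 1.71 on a log2 scale relative to their mean over the 6 libraries, and Msr1 was at -2.92. The tumor and stromal marker sum was at 1.65 and the macrophage marker sum at -1.33 in the same library. Mertk was at -0.10 there, and Lrp1 at -0.43. Axl and Mfge8 also had low values in the same libraries, at -1.70 and -1.68 in Ptgs-competent replicate 2 and at -1.65 and -2.52 in Ptgs-deficient replicate 2, whose tumor and stromal sums were at 0.20 and -1.54. Fibroblasts and tumor cells are known to express Axl and Mfge8. The pools were sorted for CD45, CD11b and F4/80, and their tumor and stromal sums were 44.3 to 1036 CPM. The part of such cells in these levels was not tested.

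**Figure D4:**
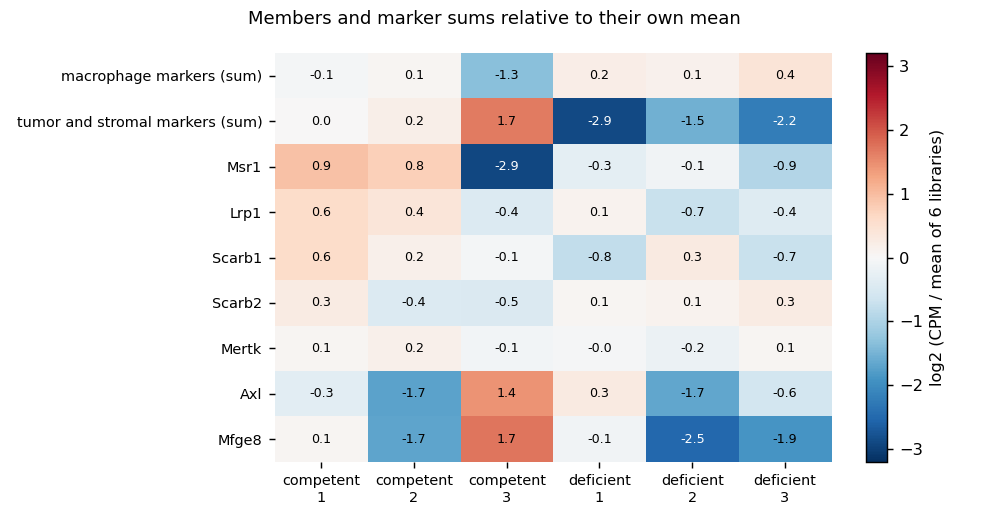
Heat map of the macrophage and tumor and stromal marker sums and of 7 members in each library, as log2 of CPM over the row's mean of 6 libraries (red above, blue below, value in each cell). Ptgs-competent replicate 3 shows high Axl and Mfge8 with low Msr1, while the Mertk row is nearly white, between -0.20 and 0.16.

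The rest of the uptake pathway was read from 5 lists with 90 genes, of which 69 were tested. None was called, against 0.216% of all tested genes. At an unadjusted p under 0.05, 12 were higher and 2 lower in Ptgs-deficient pools, that is 12 and 2 of 69 where 5% and 3.82% of all tested genes were. Without overlap of the groups there were 20 higher and 8 lower, against 11% and 8.01% of all tested genes. By other tests, the likelihood ratio test called Gas6 and Timd4, DESeq2 called Gas6, Adam10 and Timd4 among others, and both limma fits called Gas6.

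Among other phosphatidylserine receptors and bridging molecules, 15 of 21 genes were tested, 9 with a log2 fold change above 0 and 6 below, with a median of 0.96. Timd4, a phosphatidylserine receptor of resident macrophages, had 0 counts in Ptgs-competent pools and 253, 346 and 80 in Ptgs-deficient pools. Against a floor of 3 counts per library, which covers counting error only, this is at least 64.3-fold higher (edgeR adjusted p = 0.208). With Timd4 set to this bound the list median is the same. The complement components C1qb and C1qc, which opsonise dying cells, were higher without overlap. C1qb was at 745 ± 285 and 1575 ± 302 CPM and C1qc at 1051 ± 575 and 2451 ± 281 CPM (n = 3 each, SD), with edgeR adjusted p of 0.350 and 0.376. These genes were higher in the same libraries as the sum of 10 resident-type macrophage markers, Timd4 among them, which was 185 to 535 CPM in Ptgs-competent pools and 1548 to 2451 CPM in Ptgs-deficient pools. Its part in the ligand and receptor levels was not tested. Havcr1 and Timd2 had 0 counts in all libraries.

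Of the other scavenger receptors, 11 of 19 were tested, 6 above and 5 below 0, with a median of 0.57. The hemoglobin receptor gene Cd163 was at 131 ± 65.7 and 356 ± 55.3 CPM and the mannose receptor gene Mrc1 at 422 ± 159.7 and 839.7 ± 41.6 CPM (n = 3 each, SD), with edgeR adjusted p of 0.2998 and 0.376. Both were higher in every Ptgs-deficient library, unlike Msr1. The hyaluronan receptor gene Cd44 was at 367.5 ± 135 and 211 ± 17.9 CPM (n = 3 each, SD), with an edgeR adjusted p of 0.571, and the Cd44 log2 fold change was -0.41 in place of -0.80 without Ptgs-competent replicate 3.

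The engulfment machinery had the list median nearest to that of all tested genes. Of 24 genes, 21 were tested, 11 above and 10 below 0, with a median of 0.10 and 0 at an unadjusted p under 0.05. The list genes with the smallest p were Elmo2, an activator of the small GTPase RAC1, at 42.9 ± 19.2 and 102 ± 26.2 CPM, and the GTPase gene Cdc42, at 433 ± 200.5 and 757 ± 51.9 CPM (n = 3 each, SD). The actin regulators Wasf2 and Arpc2 had log2 fold changes of 0.88 and 0.54, and that of Arpc2 was 0.30 without Ptgs-competent replicate 3. The edgeR adjusted p of these 4 genes was between 0.669 and 0.9204.

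Genes that handle engulfed lipid were tested for 14 of 15, 8 above and 6 below 0, with a median of 0.48. Nr1h3, which encodes the sterol-sensing receptor LXRα, was at 184, 122 and 125 CPM in Ptgs-competent pools and 50.7, 25.1 and 66.6 CPM in Ptgs-deficient pools. Its exons overlap Gm13783 on the same strand. Abcg1 and Abca1 encode cholesterol exporters and are known targets of this receptor. Abcg1 was at 36.0 ± 36.6 and 145.5 ± 54.9 CPM (n = 3 each, SD). Without Ptgs-competent replicate 2, which held 72.4% of the group's Abcg1 level, the mean was 14.9 CPM and the log2 fold change 3.29 in place of 2.02. Abca1 was at 55.9, 31.5 and 33.2 CPM in Ptgs-competent pools and, with overlap, 37.4, 161 and 173 CPM in Ptgs-deficient pools. Lipa, the lysosomal lipase, was at 49.3 ± 39.1 and 171.5 ± 43.6 CPM (n = 3 each, SD). Without Ptgs-competent replicate 3, which held 63.2% of the group's Lipa level, the mean was 27.2 CPM and the log2 fold change 2.70 in place of 1.80. The edgeR adjusted p of these 4 genes lay between 0.369 and 0.496, so that none passed.

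Among sheddases and genes downstream of the receptor kinases, 8 of 11 were tested, 7 above and 1 below 0, with a median of 0.41. Adam10, a protease that sheds surface receptors, was at 0.159, 5.74 and 1.51 CPM in Ptgs-competent pools and 83.0, 51.1 and 54.0 CPM in Ptgs-deficient pools. Its log2 fold change was 4.65 ± 1.47 (SE; edgeR adjusted p = 0.2998), and 6.23 without Ptgs-competent replicate 2. Adam17, the sheddase best known for cleaving MERTK, was at 167 to 219.8 CPM and 165 to 229.8 CPM, a log2 fold change of 0.10 ± 0.36 (SE); it is given here for that link, outside the naming rule. Of the feedback inhibitor genes Socs3 and Socs1, levels were 232 ± 38.8 and 364 ± 51.6 CPM (n = 3 each, SD) for Socs3, and Socs1 was at 0.319, 0 and 14.4 CPM in Ptgs-competent pools and 4.74, 14.8 and 17.0 CPM in Ptgs-deficient pools. Ptgs-competent replicate 3 held 97.8% of its group's Socs1 level, and without it the mean was 0.159 in place of 4.92 CPM and the log2 fold change 6.11 in place of 1.30. The edgeR adjusted p of Socs3 and Socs1 was 0.690 and 0.9995.

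**Figure D5:**
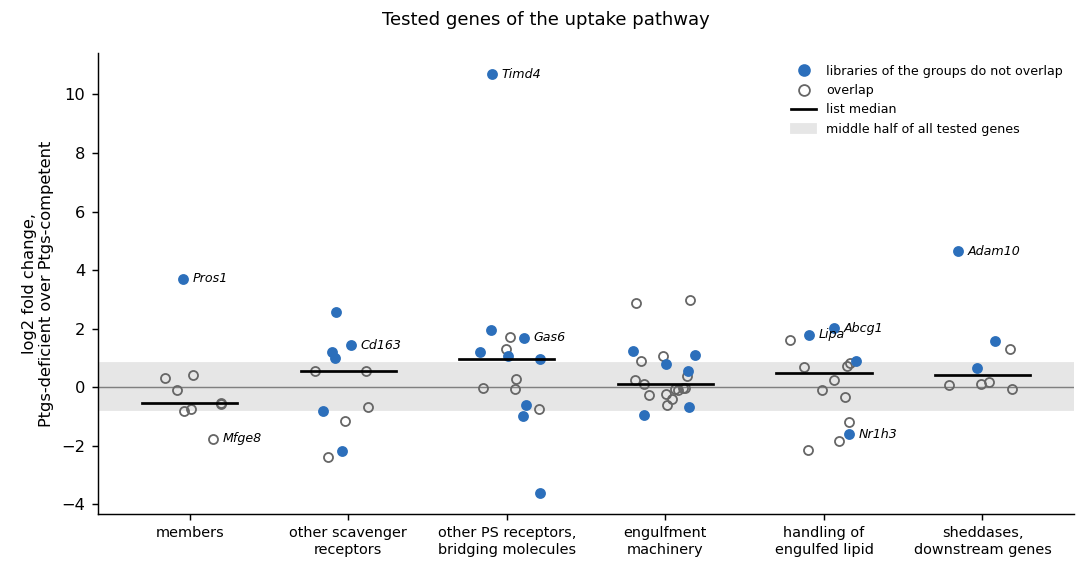
Fitted log2 fold change, Ptgs-deficient over Ptgs-competent, of every tested member and pathway list gene (points; blue where the libraries of the groups do not overlap), with list medians (black lines) and the middle 50% of all 8793 tested genes (grey band). Pros1, Gas6, Timd4 and Adam10 lie above the band without overlap, and the members' median (-0.54) is the lowest of the 6 groups.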

How the data were processed

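The authors deposited 1 table of raw read counts per Ensembl gene, not normalized. Per the study's methods, QuantSeq FWD 3′ libraries were trimmed with BBDUK, fqtrim and cutadapt, aligned with STAR to GRCm38 and counted with featureCounts on an Ensembl GRCm38 annotation older than the one used here for positions, with tool versions, strand setting and treatment of multiply aligned reads not stated. PCR copies of a molecule could not be told apart, so floors cover counting error only. Columns were matched to samples by title. No column lay outside the 6 libraries.

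Counts were filtered with filterByExpr (minimum count 10, minimum total 15), which left 8793 of 39179 genes, scaled by TMM and compared with the quasi-likelihood test of edgeR 4.0.16 in R 4.3.3, two-sided, with Benjamini-Hochberg adjustment over all genes tested. Calls needed an adjusted p of at most 0.05 with an absolute log2 fold change of 1.5 or more. SE was the log2 fold change over the square root of F. Alternatives used limma 3.58.1, DESeq2 1.42.0, other scalings and filters, a replicate block and 1 library left out.

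The members and lists were chosen with earlier results of these data known. Named were all members and, of each pathway list, up to 4 tested genes with the smallest p. Of these, 2 list genes are counted in their lists but not reported here by name. List symbols absent from the table (Adgrb1, Rubcn, Adgre1) were matched by Ensembl ID. Positions come from GENCODE M21 (GRCm38), and start-site windows, listed for 8 of the 10 members, from RefSeq.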

Additional observations from a re-analysis of the deposited data

How the results depend on the processing

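The count of called genes depended on the test more than on the scaling. Against 19 by the quasi-likelihood test, it was 252 without a filter, 241 by the likelihood ratio test, 328 by DESeq2, 96 by limma voom, 123 by limma voom with sample quality weights and 77 with a replicate block, and from 0 to 25 with 1 library left out. The 0 came without Ptgs-competent replicate 1, where 1231 genes had an unadjusted p under 0.05 by edgeR, and the 25 without Ptgs-competent replicate 3. It was 11 without Ptgs-competent replicate 2 and 2, 4 and 3 without Ptgs-deficient replicates 1, 2 and 3. The cause was not tested. Members called were 0 in each of these fits except the unfiltered one, which called 1 (Pros1). Pathway list genes called were 2 without a filter, 2 by the likelihood ratio test, 4 by DESeq2, and 1 each by both limma fits and the replicate block, and 0 in each fit with a library left out. Of 135 member values under alternatives, 3 reversed, all on leaving out a library: Axl (-1.35 to 0.45 over the libraries left out) and Havcr2 (-0.83 to 2.48). Same-numbered libraries did not deviate together (correlations of -0.06, -0.03 and -0.02). With 3 libraries per group these values cannot show whether same-numbered pools shared an experiment. The Pros1 log2 fold change was 6.62 (limma voom), 6.20 (quality weights) and 6.77 (block, adjusted p 0.151) in place of 3.70, and that of Msr1 -0.14, -0.40 and -0.14 in place of -0.73, in each case with no call. The median of all tested genes lay at 0.34 and 0.39 in the limma fits, 0.26 with the block, and 0.14 and 0.13 without Ptgs-competent replicates 1 and 3. Marco has a fitted value only without a filter, and none is given. Axl and Mfge8 stayed below those medians in both limma fits.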

Other observations

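The steadiness of Mertk held under each scaling tried. The highest library was 1.34 times the lowest with RLE scaling, 1.22 times with upper-quartile scaling and 1.33 times with no scaling beyond the library total. Of 8793 tested genes, 10, 2 and 8 had a smaller ratio in these cases. The ratio for Scarb2 was 1.55, 1.72 and 1.53, with 83, 155 and 73 genes below it. These ranks were looked at after the values had been seen.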
